A study of Mus musculus with 2 samples.

Results

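The transcripts described here are those annotated as sense_intronic, sense_overlapping or TEC, measured in mouse cerebral cortex. They were chosen by their class in the annotation field of the transcript names, and by no measured value. The rule gave 3719 members of 141767 annotated transcripts, of which 3296 were TEC, 362 sense_intronic and 61 sense_overlapping. They belonged to 3624 genes, and 76 of them were transcripts of a gene whose own class was another one.

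Left cerebral cortex came from B6CASTF1/J males, first-generation offspring of C57BL/6J and CAST/EiJ parents, aged 25 days, and 300 ng of total RNA went into a library. The labels give 1 group of 2 libraries, biological replicates 1 and 2, and name no treatment. The labels number the tissues separately but share a donor entry, so that the libraries come from separate animals is an assumption. With 1 group no contrast between conditions exists and no test was made; every difference below is between 1 library and another. Each library had a transcript file with estimated counts and a second transcript file with expected counts, with column names of different programs, and both also gave TPM, a level per transcript length scaled to a fixed total.

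As the classes are defined, a sense_intronic transcript lies within an intron of a protein-coding gene on the same strand. A sense_overlapping transcript spans such a gene and carries it in an intron, though not every member annotated so has an intron. TEC is the annotators' tag for loci, mostly without introns, that have features of a polyadenylated RNA but await experimental evidence. Many genes of the brain are long, and RNA from total preparations holds unspliced precursors, so reads of an intronic transcript and of its unspliced host gene have the same sequence and cannot be told apart in these files.

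The 3′ ends of 6 leading members, picked because they hold it, are shown for the hexamer of the common polyadenylation signal. Each is the last 60 bases of the annotated transcript, 5′ to 3′, from GENCODE on mm10 (GRCm38), with the hexamer AATAAA in capitals. Peg13-201 ends in chr15:72805600-72805659 on the minus strand, Gm44509-201 in chr7:55973519-55973578 on the minus strand and Gm47155-201 in chr13:93412898-93412957 on the plus strand. Gm49593-201 ends in chr15:79480227-79480286 on the minus strand, Gm43682-201 in chr5:93179000-93179059 on the plus strand and Particl-201 in chr6:72440551-72440610 on the plus strand.
Peg13-201: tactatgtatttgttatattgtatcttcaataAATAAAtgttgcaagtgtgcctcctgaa
Gm44509-201: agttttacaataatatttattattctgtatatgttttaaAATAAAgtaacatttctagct
Gm47155-201: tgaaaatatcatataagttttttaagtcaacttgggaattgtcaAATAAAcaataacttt
Gm49593-201: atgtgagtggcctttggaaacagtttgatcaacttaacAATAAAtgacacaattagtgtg
Gm43682-201: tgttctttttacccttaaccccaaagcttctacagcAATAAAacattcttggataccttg
Particl-201: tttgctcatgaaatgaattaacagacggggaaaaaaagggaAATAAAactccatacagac

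In these 6 the hexamer ended between 10 and 22 bases before the annotated 3′ end. Over all members with at least 50 bases, 819 of 3718, or 22.0%, held AATAAA in their last 50 bases, against 26.6% of all annotated transcripts, 40.6% of protein_coding and 17.3% of retained_intron ones. Of the 20 highest members 8 held it in the estimated-count files' list and 11 in that of the expected-count files. The reverse complement TTTATT stood in 4.36% of the members' windows. By class the share was 21.9% for TEC, 21.8% for sense_intronic and 32.8% for sense_overlapping transcripts. Members within 10 kb after a coding gene on its strand held it in 35.7% of cases (65 of 182), and members in an intron of a coding gene in 15.6% (283 of 1818). A match is a description of the letters, not of a used site.

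A second pair of sequences shows members that share long stretches. Gm47673-201 (TEC) and Gm47031-201 (sense_intronic, in the gene Mgat4c) were both among the 5 highest members of the estimated-count file, and both were at 0 in the expected-count file. Their last 120 bases follow, from chr10:100432938-100433057 on the minus strand and chr10:102321775-102321894 on the plus strand, with capitals for bases that lie in a run of 31 bases present in both transcripts.
Gm47673-201: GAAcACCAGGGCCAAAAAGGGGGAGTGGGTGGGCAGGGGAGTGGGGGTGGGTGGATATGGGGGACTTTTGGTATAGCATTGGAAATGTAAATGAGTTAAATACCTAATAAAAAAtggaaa
Gm47031-201: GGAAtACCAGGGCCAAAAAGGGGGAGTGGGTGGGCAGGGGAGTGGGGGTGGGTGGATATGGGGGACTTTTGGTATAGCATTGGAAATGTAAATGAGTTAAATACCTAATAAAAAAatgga
Of the 632 bases of Gm47673-201, 588 lay in 31-base runs found in Gm47031-201. Every 31-base run of Gm47673-201, and 95.5% of those of Gm47031-201, also occurred in an annotated transcript of another gene. A read of such a stretch fits many genes, and a program has to divide it among them.

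The estimated-count files held 31012279 counts in replicate 1 and 33760788 in replicate 2, and the expected-count files 30503944 and 33263801. For a member of the median length of 1850 bases, the 3 counts that a count of 0 allows correspond to 0.129 TPM in replicate 1 and 0.115 TPM in replicate 2. Markers of the labelled tissue were present: all 6 neuronal genes reached 1 TPM in both libraries, with medians of 851 and 833 TPM, and all 3 astrocyte and all 3 oligodendrocyte genes did too. Counting limits and the intervals below cover counting error only, since reads were not tied to single molecules.

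The members were many and low. In the estimated-count files 1053 members reached 1 TPM in both libraries, or 28.3%, where 29.9% of all annotated transcripts did. In the expected-count files 476 did, or 12.8%, against 23.8% of all transcripts. Both kinds of file placed 466 members at that level, or 12.5% against 20% of all transcripts, and these comprised 409 TEC, 50 sense_intronic and 7 sense_overlapping transcripts. The share of members detected was thus near the background in one file and below it in the other. Annotated lincRNA transcripts, which are long intergenic noncoding RNAs, reached the level in both files in 4.36% of cases, antisense transcripts in 4.57% and retained_intron transcripts in 23.7%.

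The median level of a member was 0.547 TPM in replicate 1 and 0.440 TPM in replicate 2 of the estimated-count files, and 0.170 and 0.140 TPM in the expected-count files. On the estimated-count scale 56 members had a mean of 10 TPM or more, and on the expected-count scale 10 did. No count was found in either library for 755 members in the estimated-count files and for 1047 in the expected-count files.

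Together the members took a small part of the libraries. Their summed estimated counts were 179508 in replicate 1, or 0.581% of all annotated counts (95% exact binomial interval 0.578 to 0.583%), and 166590 in replicate 2, or 0.495% (0.492 to 0.497%). Summed expected counts were 106398, or 0.350% (0.348 to 0.353%), and 98915, or 0.299% (0.297 to 0.301%). TEC transcripts held most of it, with 0.497% and 0.417% of the estimated counts, beside 0.0788% and 0.0729% for sense_intronic and 0.00520% and 0.00492% for sense_overlapping ones. Replicate 2 had the lower share in both kinds of file. The 20 members with the most counts made up 26.3% of the members' estimated counts and 22.9% of their expected counts.

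Position in the genome went with detection. Of the members, 1818 (48.9%) lay in an intron of a coding gene on its strand, 1224 fell in none of the named positions (called elsewhere below), 378 inside a coding gene on the opposite strand and 182 within 10 kb after one on the same strand. An estimated count of 10 or more on average was reached by 67.8% of the intronic members, 59.9% of those after a gene, 32.4% of those elsewhere and 23.5% of those on the opposite strand, where 37.8% of all annotated transcripts reached it. At 1 TPM in both libraries of both kinds of file the shares were 18.1%, 19.8%, 6.13% and 2.91% in the same order.

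**Figure D1:**
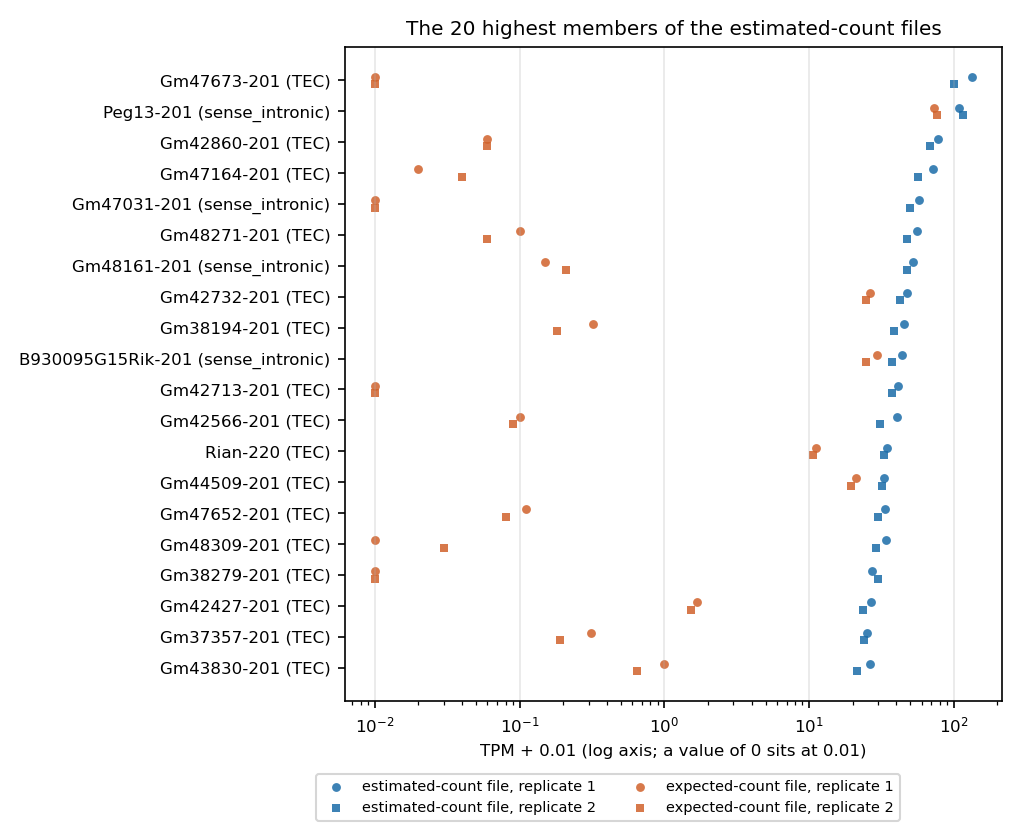
TPM of the 20 members with the highest mean in the estimated-count files, per library (circles replicate 1, squares replicate 2), in the estimated-count files (blue) and expected-count files (orange), on a log axis of TPM + 0.01. The blue points lie between 21.5 and 134 TPM, while most orange points lie below 1 TPM; Peg13-201, Gm42732-201, B930095G15Rik-201, Gm44509-201 and Rian-220 are the ones above 10 TPM in both.

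The list of the 20 highest members turned on the file. Gm47673-201 led the estimated-count files with 134 TPM in replicate 1 and 101 TPM in replicate 2, from 597 and 508 estimated counts, and had 0 expected counts in both libraries. Gm42860-201, a TEC transcript on chromosome 5, had 77.8 and 68.5 TPM in the estimated-count files and 0.05 TPM in both libraries of the expected-count files, where 4402 and 4302 estimated counts stood against 4 and 4 expected counts. Gm47164-201, in an intron of Lrriq1, had 71.8 and 56.4 TPM against 0.01 and 0.03 TPM. These leaders were high in both libraries of one file and near 0 in both libraries of the other.

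Of the 20, 11 had under 10 expected counts on average, 5 more were over 2-fold lower in expected counts, and 4 stayed within 2-fold. In 14 of the 20, over 50% of the 31-base runs were shared with another gene, and all 14 were over 2-fold apart between the files. The 4 within 2-fold shared at most 15.5%. The 20 highest of the expected-count files had 18 members within 2-fold in counts and 1 with over 50% shared runs, and 5 members were on both lists.

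**Figure D2:**
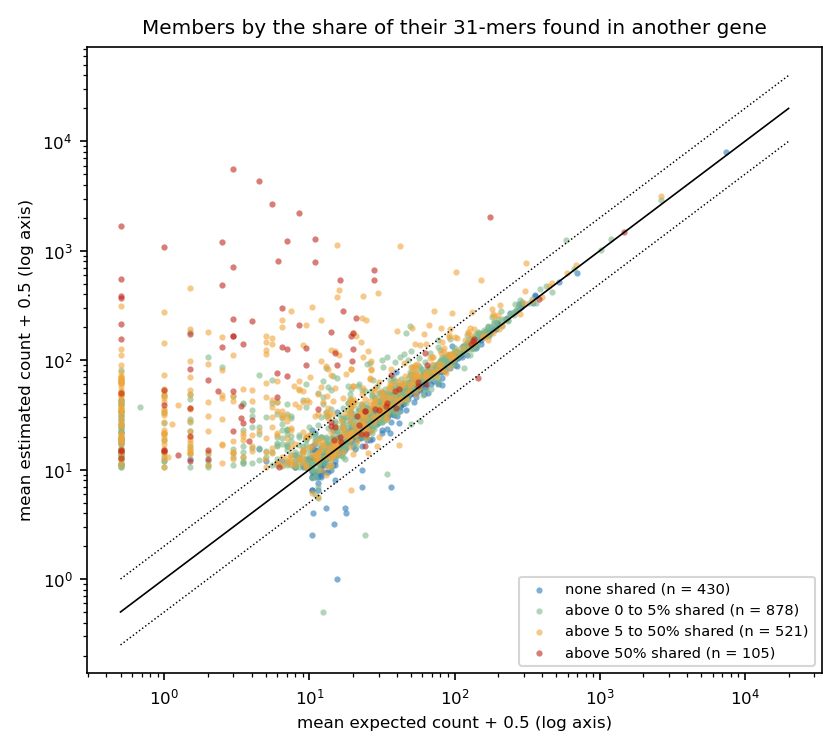
Mean estimated count against mean expected count (each + 0.5, log axes) for the 1934 members with a mean of 10 or more in either file, coloured by the percentage of their 31-base runs found in another annotated gene; the solid line is equality and the dotted lines are 2-fold. Members with no shared run follow the line, and members with over 50% shared runs spread above it.

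Over the 1934 members with a mean count of at least 10 in either file, the estimated count was over 2-fold above the expected count in 527, or 27.2%, and over 2-fold below it in 19, or 0.982%. Among all annotated transcripts under the same rule 22.2% were above and 15.8% below, so the members' share above was near the background and their share below was under it. The median log2 ratio of estimated to expected counts was 0.27 for members and 0.11 for all transcripts. By TPM the count above was 407, or 21.04% against 25.5% of all transcripts, and the count below was 2, against 9.17%. TPM of the 2 files was not on one scale, with a median log2 ratio over all transcripts of 0.55, so counts are the closer comparison. Across members Spearman's rho between the files was 0.65 for counts, and rho between the libraries within a file was 0.92 for TPM of the estimated-count files and 0.95 for the expected-count files. These coefficients describe transcripts that share libraries and reads, and they carry no test.

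Among the members the disagreement followed sequence sharing. In the 430 measured members with no shared 31-base run the median log2 ratio of counts was 0.04, and 8 were over 2-fold higher in estimated counts and 10 lower. In the 878 with above 0 to 5% shared it was 0.28 with 193 higher, in the 521 with above 5 to 50% it was 0.91 with 254 higher, and in the 105 with over 50% it was 3.50 with 72 higher. Members with over 50% shared runs held 21.8% of the members' estimated counts and 3.81% of their expected counts. Protein_coding transcripts with over 50% shared runs had a median log2 ratio of 0.02. Over the bins in that order, 1.86, 22, 48.8 and 68.6% of members were over 2-fold higher in estimated counts. For protein_coding transcripts the shares were 21.1, 18.6, 24.9 and 25%. For lincRNA and antisense transcripts together they were 8.88, 48, 47.9 and 40.6%, with no steady rise past the first bin. Whether shared sequence brought about the difference between the files was not tested.

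A few members stood the other way. Gm36935-201, in an intron of Nav3, had 15 and 15 expected counts and 1 and 0 estimated counts. Gm43048-201, in an intron of Kcnip4, had 25 and 22 expected counts against 4 and 0. Both are short, at 292 and 388 bases, and levels of such short members rest on few counts in either file.

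Among members on which the files were close, Peg13-201 was far ahead. Peg13 is an imprinted noncoding RNA that the brain makes from the paternal copy, and it lies in an intron of Trappc9, a gene of vesicle trafficking (chr15:72805600-72810324, minus strand, 1 exon of 4725 bases). It had 108 TPM in replicate 1 and 115 TPM in replicate 2 of the estimated-count files and 72.9 and 76.3 TPM in the expected-count files. Its 7352 and 8684 estimated counts stood beside 6791 and 7944 expected counts, and none of its 31-base runs was shared. Trappc9 itself had 38.5 and 37.9 TPM, so the intronic RNA was at 292% of its host. The libraries differed by 0.09 on the log2 scale, with replicate 2 the higher.

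B930095G15Rik-201, a sense_intronic transcript in Farp1 on chromosome 14, followed with 44.1 and 37.2 TPM in the estimated-count files and 29.6 and 24.7 TPM in the expected-count files. Farp1, which encodes a guanine nucleotide exchange factor of dendrites, had 130 and 111 TPM. Gm42732-201, a TEC transcript in an intron of Ociad1 on chromosome 5, had 47.8 and 42.7 TPM and, in the expected-count files, 26.4 and 24.6 TPM. Replicate 2 was the lower library for both members in both files.

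A group of leaders lay just after a coding gene, on its strand, beyond its annotated end; apart from Gm44509-201 those named were picked after their values were seen. Gm44509-201 began 2725 bases after Nipa1, which encodes a magnesium transporter, and had 32.7 and 31.7 TPM beside 46.9 and 45.5 TPM for Nipa1. Gm47155-201 began 5654 bases after Homer1, a scaffold gene of the postsynaptic density, and had 22.3 and 19.3 TPM beside 339 and 334 TPM for Homer1. Gm49593-201 began 1040 bases after Kcnj4, a gene of an inward rectifier potassium channel, and had 20.5 and 19.0 TPM beside 116 and 112 TPM.

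Gm43682-201 began 523 bases after Sept11, a septin gene, and had 12.5 and 10.96 TPM beside 176 and 192 TPM. In the expected-count files these 4 members had 21.01 and 19.5, 16.7 and 14.8, 14.1 and 12.6, and 8.58 and 7.78 TPM. Each was within 2-fold between the files in counts, and in no case did the member exceed the gene before it. Over the 109 measured members of this position, the median level was 6.71% of that of the gene before, 14 were above that gene, and Spearman's rho with it was 0.23. The files do not tell a longer 3′ end of the gene from a separate RNA.

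Members of imprinted regions formed another set of leaders, picked after their values were seen. Rian is a noncoding RNA of the Dlk1-Dio3 region that is made from the maternal copy. Its TEC transcript Rian-220 had 34.4 and 32.8 TPM in the estimated-count files and 11.2 and 10.6 TPM in the expected-count files, and Rian-219 had 17.1 and 18.0 TPM against 12.2 and 12.2 TPM. All 4 members between Meg3 and the end of Mirg reached 1 TPM in both libraries of both files, where 20% of all transcripts and 12.5% of members did. The region was picked after these values were seen, so the full count carries no weight of its own. The 4 also comprised Rian-218 with 4.43 and 3.06 TPM and Gm37899-201 with 9.88 and 8.91 TPM. In the estimated-count files Rian-219 was slightly higher in replicate 2 and the other 3 were lower.

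All 4 members opposite Ube3a, picked likewise, also reached 1 TPM in both libraries of both files, with the same limit. Ube3a is a ubiquitin ligase gene whose paternal copy is silenced in neurons by a long antisense RNA. The single-exon transcript 9330162G02Rik-201 covers 30942 bases there (chr7:59223847-59254788, minus strand) and had 6.88 and 5.82 TPM from 3265 and 3062 estimated counts. Gm44562-201 had 7.08 and 6.41 TPM, Gm44559-201 9.18 and 7.01 TPM and Gm44560-201 8.52 and 7.54 TPM. All 4 were lower in replicate 2 of the estimated-count files. In the expected-count files the 4 ranged from 3.42 to 6.61 TPM, and Gm44562-201 had 3.42 TPM in both libraries.

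**Figure D3:**
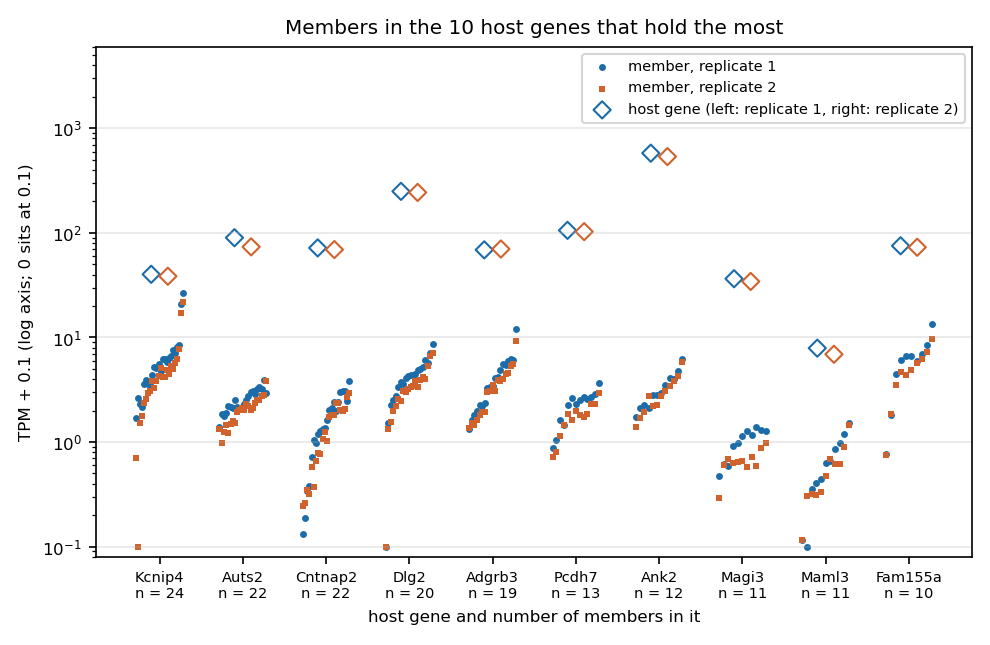
TPM + 0.1 on a log axis of the members in the 10 host genes that hold the most, in the estimated-count files; small circles are members in replicate 1, small squares members in replicate 2, sorted by mean level, and open diamonds the host gene in each library. Of the 164 members in these genes, 0 had a mean above that of the host.

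Intronic members gathered in long genes. In all, 1885 members lay within 1108 coding genes on the same strand, 334 genes held more than 1 and 49 held 5 or more. The hosts had a median span of 101 kb, against 17.4 kb for all coding genes. Kcnip4, a modulator of voltage-gated potassium channels, held 24 members, Auts2 and Cntnap2, genes of neuronal development and of axonal adhesion, 22 each, Dlg2, a postsynaptic scaffold, 20 and Adgrb3, an adhesion receptor of synapses, 19. Pcdh7, a protocadherin gene, held 13 and Ank2, which encodes an ankyrin of the membrane skeleton, 12.

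Members of 1 host varied several fold among themselves. In Kcnip4, at 40.1 and 38.4 TPM, the member means ran from 1.09 to 23.9 TPM with medians of 5.30 TPM in replicate 1 and 4.11 TPM in replicate 2, and 19 of the 24 reached 1 TPM in both libraries of both files, where 20% of all transcripts and 18.1% of intronic members did; in Magi3 and in Maml3 0 of 11 did. The 2 highest, Gm43830-201 and Gm43321-201, the latter picked after its values were seen, had 26.3 and 21.5 TPM and 20.8 and 17.2 TPM in the estimated-count files but 0.98 and 0.64 TPM and 2.26 and 1.92 TPM in the expected-count files. In Auts2, at 89.8 and 73.4 TPM, the 22 members were close together, from 1.26 to 3.28 TPM. In Cntnap2, at 71.8 and 69.2 TPM, they ran from 0.0875 to 3.29 TPM, and 7 of 22 reached the level in both files.

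In Dlg2, at 250 and 244 TPM, the median member had 4.20 and 3.17 TPM. In Ank2, the highest of these hosts at 579 and 537 TPM, it had 2.79 and 2.65 TPM. In Adgrb3, at 68.7 and 70.1 TPM, it had 3.34 and 2.97 TPM. Of Dlg2, Ank2 and Adgrb3, the highest host, Ank2, had the lowest median member. Among the 10 hosts with the most members, the lowest were Maml3 and Magi3, at means of 7.30 and 35.3 TPM. Their median members were also the lowest of the 10, at 0.449 and 0.804 TPM.

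Over all 1273 measured members in a host, a member was at a median of 2.85% of the level of its host (quartiles 1.47 and 6.18%). Spearman's rho of member and host level across them was 0.39, as a description, since members of 1 gene share it. Hosts of measured members had a median of 46.7 TPM and hosts of the 612 others 14.4 TPM. Above the host were 30 members, of which 8 had counts within 2-fold between the files, Peg13-201 being the highest of these in TPM.

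Transcripts of the sense_overlapping class were few and low. Of 61, 12 reached 1 TPM in both libraries of the estimated-count files (19.7%) and 7 in both kinds of file. BX649560.1-201 led with 8.997 and 8.20 TPM and 7.0 and 6.46 TPM in the expected-count files. It begins 1398 bases after Arfgap1 but overlaps another coding gene on its strand in part. Of its bases, 79 lie in same-strand exons of other genes. Gm20712-201, 318 bases after Tmem65, had 5.29 and 3.74 TPM, and the expected-count files gave 4.21 and 3.57 TPM. Of the 61, 7 have 1 exon, among them BX649560.1-201 and Gm20712-201, and so carry no gene in an intron.

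Several of this class carry a gene for a transcription factor of neural cells. AC122898.1-202, which holds Pou3f3 and was picked after its values were seen, had 3.52 and 2.62 TPM beside 42.0 and 38.2 TPM for Pou3f3. Sox1ot-202, which holds Sox1, had 3.12 and 2.74 TPM beside 4.51 and 5.05 TPM for Sox1. The locus Sox2ot around Sox2 gave 16 of the 61 transcripts, 3 at 1 TPM in both libraries and 4 without an estimated count in either.

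Single Sox2ot isoforms were not steady. Sox2ot-206 had 5.25 and 2.69 TPM, Sox2ot-217 had 4.17 and 8.23 TPM and Sox2ot-210 had 0.375 and 3.16 TPM, while the expected-count files gave 3.64 and 2.54, 0.47 and 0, and 0 and 0 TPM. Summed over the 16, the level was 16.8 and 21.8 TPM in the estimated-count files and 7.81 and 8.08 TPM in the expected-count files. Why the isoforms differed between libraries and files was not tested.

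**Figure D4:**
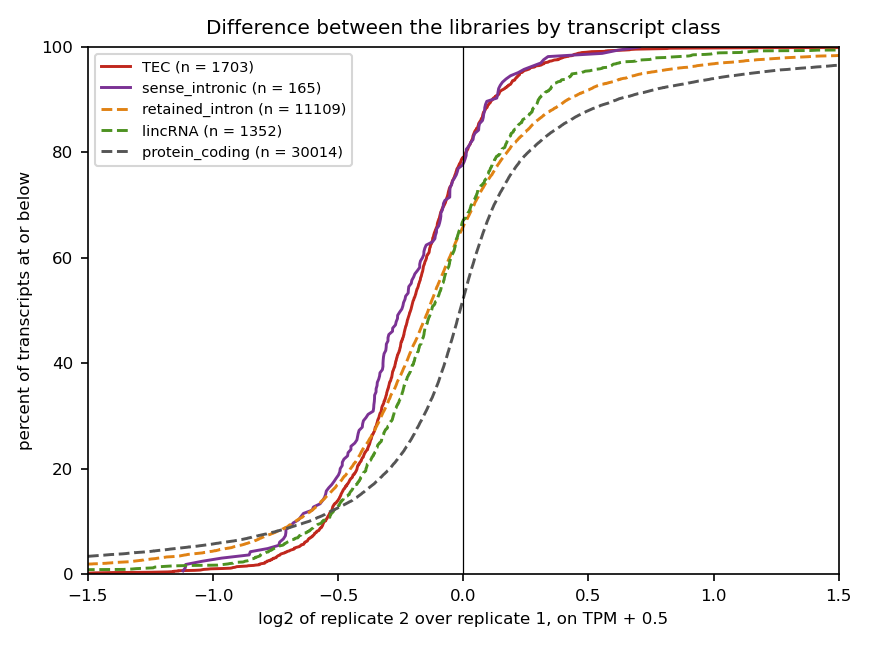
Cumulative percentage of transcripts by the log2 ratio of replicate 2 to replicate 1 (TPM + 0.5, estimated-count files, mean estimated count of 10 or more), for TEC and sense_intronic members (solid) and other classes (dashed); values beyond 1.5 either way are not drawn. The solid curves reach 79.0% and 77.6% at 0, the protein_coding curve 52.3%.

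Between the libraries the members were, as a body, lower in replicate 2. On log2 of TPM + 0.5, which understates the change of low transcripts, the median over 1884 members with a mean estimated count of 10 or more was -0.21, and 1485 of them (78.8%) were lower in replicate 2. Over all annotated transcripts under the same rule the median was -0.05 and 57.3% were lower. The medians were -0.21 for TEC, -0.25 for sense_intronic and -0.14 for the 16 sense_overlapping members, beside -0.14 for retained_intron, -0.13 for lincRNA, -0.08 for antisense and -0.01 for protein_coding transcripts. In the expected-count files the median over 1468 members was -0.19. Members with no shared 31-base run had -0.22 (n = 399).

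The shift was larger for intronic members than for the other positions. Members in an intron on the strand of their host had a median of -0.25 (n = 1232), those after a gene -0.15 (n = 109), those elsewhere -0.14 (n = 397) and those on the opposite strand -0.12 (n = 89). Members that overlapped exons inside a gene had -0.19 (n = 41) and those that overlapped a gene in part -0.14 (n = 16). The hosts of measured members had a median of -0.04, counted once per member, and 972 of 1273 members (76.4%) shifted further down than their host. In the 10 hosts with the most members 148 of 164 members were lower in replicate 2, among them 23 of 24 in Kcnip4 and all 13 in Pcdh7. In Kcnip4 the median member shifted by -0.38 and the gene by -0.06. Auts2 shifted nearly as far as its members, with -0.29 for the gene and -0.31 for the median member.

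Other RNAs moved between the same libraries. In the list that follows, the sum for Rian, 1021 and 975 TPM, includes the members Rian-218, Rian-219 and Rian-220. All 9 genes of a list of nuclear and unspliced RNAs (Malat1, Neat1, Meg3, Kcnq1ot1, Rian, Mirg, Snhg11, Miat, Xist) were lower in replicate 2, with a median of -0.22 and sums of 6159 TPM in replicate 1 and 5374 TPM in replicate 2; none was at 0, and Xist was lowest at 0.172 and 0.122 TPM. All 3 oligodendrocyte genes were higher in replicate 2, with sums of 900 and 1211 TPM, and so were all 3 choroid plexus genes, with sums of 32.3 and 304 TPM. The 3 red blood cell genes were lower, with sums of 1806 and 1245 TPM, and the 3 astrocyte genes were lower, with 2064 and 1873 TPM. Of the 6 neuronal genes 5 were lower, with sums of 4985 and 4913 TPM, and the 2 microglial genes summed to 73.2 and 73.4 TPM. The part of any of these in the members' shift was not tested, and in tissue RNA fewer cells of a type and less RNA per cell cannot be told apart.

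Single members were rarely far apart. Of the 1884, 5 were over 2-fold higher in replicate 2 and 22 over 2-fold lower, or 1.43% together, where 10.7% of all annotated transcripts were (5.24% higher and 5.51% lower). In the expected-count files 9 of 1468 were, against 8.61% of all transcripts. The count rests on the pseudocount: it was 85 (4.51%, against 14.3% of all transcripts) with 0.1 TPM, 8 (0.425%, against 7.85%) with 1 TPM and 105 (5.57%, against 15.2%) with DESeq2 size factors. The share was below the background in each of these settings and in the expected-count files. Other classes differed widely from that background. At the main setting, 2.88% of lincRNA and 4.23% of antisense transcripts were over 2-fold apart. The shares were 7.55% for retained_intron, 11.7% for protein_coding and 14.8% for processed_transcript ones.

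The extremes fell into kinds. Gm42605-201 on chromosome 5 and Gm44267-201 on chromosome 6 have the same sequence of 385 bases and the same values, 17.9 TPM in replicate 1 and 0.498 TPM in replicate 2, with at most 1 expected count. Gm42634-201 and Gm43836-201, which share a sequence of 381 bases, were both at 0 and 17.2 TPM, again with at most 1 expected count. In all, 25 members had a sequence identical to that of another member. Such values are divided between copies and depend on the file.

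Among the members described, 3 intronic ones were over 2-fold lower in replicate 2 in both files. Gm17641-201 went the other way. It was higher in replicate 2, with log2 differences of 1.25 in the estimated-count files and 1.20 in the expected-count files. With a pseudocount of 1 TPM its difference in the estimated-count files was 0.82. Gm47075-201, in an intron of Homer1 (chr13:93312041-93314055, plus strand), had 7.18 TPM in replicate 1 and 2.27 TPM in replicate 2, from 186 and 65.3 estimated counts and 179 and 52 expected counts. Gm47088-201, 3372 bases after the end of Gm47075-201 in Homer1 and picked after its values were seen, had 5.49 and 2.14 TPM, from 110 and 47.8 estimated and 113 and 32 expected counts. Both members in Homer1 were over 2-fold lower in replicate 2 in both files.

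C630044B11Rik-201, in an intron of Ntrk2, the gene of the receptor for brain-derived neurotrophic factor, had 5.91 and 1.93 TPM, from 171 and 62.3 estimated and 158 and 64 expected counts. The log2 differences of the 3 lower members were -1.47, -1.18 and -1.40 in the estimated-count files and -1.59, -1.55 and -1.19 in the expected-count files. Summed over transcripts, Homer1 had 339 and 334 TPM, a log2 difference of -0.02, and Ntrk2 291 and 274 TPM, a difference of -0.08. Some single host transcripts differed more, in both directions. Among the most abundant, Homer1-207 differed by 0.13 and Ntrk2-201 by -0.04 in the estimated-count files, and by 0.09 and -0.02 in the expected-count files. Homer1-204, at 86.8 and 86.5 TPM, differed by -0.006 and -0.02 in the same order of files. Homer1-208 was higher in replicate 2, at 0 and 2.39 TPM, with log2 differences of 2.53 and 1.33 in the same order of files. The retained_intron transcript Ntrk2-210 had 2.80 and 1.15 TPM. Its log2 difference was -0.999 in the estimated-count files and -0.993 in the expected-count files, where C630044B11Rik-201 had -1.40 and -1.19. Ntrk2-205 differed by -0.72 and -0.40 and Homer1-206 by -0.54 and -0.39 in the same order. Gm47155-201, after the end of Homer1, differed by -0.20.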

How the data were processed

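Total RNA libraries of left cerebral cortex (2 libraries, 1 group) were taken as the authors deposited them, on mm10 with GENCODE M21 transcripts per the file list deposited with them. The deposited estimated counts and expected counts are per transcript and need not be whole; TPM in both kinds of file is the authors' own, over all rows of the file. Per the file headers the column names are those of kallisto and RSEM; for versions, read alignment and strand use the entry is: not given in the sources used here. Members were read from the class in the transcript names and placed with the GENCODE annotation, a host being the longest coding gene that contains the member on its strand. The members, lists and rules were chosen with earlier results of these data known.

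Detection means 1 TPM or more in both libraries. Differences are log2 ratios on TPM + 0.5 (counts + 0.5 between files) over transcripts with a mean count of 10 or more. Named are the 20 highest members, the leaders of each class and the largest differences between libraries or files; others are marked as picked after seeing values. The share of 31-base runs found, on either strand, in another annotated gene was added after seeing the data; no repeat annotation was used. No test was run; code was tested on simulated counts. Scaling alternatives used edgeR and DESeq2. Host genes' levels are sums of their transcripts' TPM. Rows without a gene name held 7 and 10 expected counts and were left out. Tools were pandas 2.3.3, scipy 1.17.1 and numpy 2.4.6 in Python 3.11.15, with DESeq2 1.42.0 and edgeR 4.0.16 in R 4.3.3.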

Additional observations from a re-analysis of the deposited data

How the results depend on the processing

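No paired analysis was possible because there is 1 group. The number of members detected was 1053 of 3719, or 28.3% against 29.9% of all transcripts. With a level of 0.1, 0.5 or 2 TPM it was 2437, 1667 or 521, for which no share over all transcripts was computed. With 10 estimated counts in both libraries it was 1767, where 47419 of 141767 transcripts passed. It was 476 in the expected-count files (12.8% against 23.8%) and 466 in both kinds of file (12.5% against 20%). Among the 1335 members with no shared 31-base run it was 263. With 1 library the number over all members was 1130 or 1311. The share of counts was 0.538% and 0.325% in the expected-count files; with 1 library it ran from 0.495 to 0.581%. The median difference between the libraries stayed negative under all 9 alternatives, from -0.28 to -0.06, also with edgeR and DESeq2 scaling, while the median over all transcripts ran from -0.06 to 0.02. Members over 2-fold apart numbered 27 of 1884, or 1.43% against 10.7% of all transcripts. They were 85 (4.51% against 14.3%) and 8 (0.425% against 7.85%) with pseudocounts of 0.1 and 1. With edgeR TMM they were 12 (0.637% against 9.17%). With DESeq2 size factors, whose 0.5 is added to single counts, they were 105 (5.57% against 15.2%). In the expected-count files they were 9 of 1468 (0.613% against 8.61%). They were 12 of 1884 by library size, 6 of 746 at 50 or more counts and 5 of 399 among members with no shared run. For these last settings no share over all transcripts was computed. The percentage of members over 2-fold higher in the estimated-count file was 21.04%; it was 27.2% by counts, 34.9% with a pseudocount of 0.1, 12.05% over all members, 27.2% at 50 or more counts and 1.86% among members with no shared run, and from 20.1 to 22.1% with 1 library. The median level of the 20 highest members was 39.9 TPM, from 37.3 to 42.6 TPM with 1 library, but 0.128 TPM for the same 20 in the expected-count files and in the gene table. Spearman's rho of member and host was 0.39; it was 0.45 in the expected-count files, 0.53 without a count minimum, 0.48 for members with under 5% shared runs and 0.39 with 1 value per host. The expected-count files turned Sox2ot-211 from -1.38 to 0.26 and Sox2ot-217 from 0.90 to -0.96. The causes were not tested. Sharing of 31-base runs and 1 value per host were added after seeing the data. With 2 libraries the spread between them rests on 1 difference, and members with few counts are limited by depth.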

Other observations

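Among members with a gene symbol of their own, picked after their values were seen, Svet1-201 had 3.09 and 1.72 TPM in the estimated-count files and 1.82 and 1.13 TPM in the expected-count files. Svet1 is a marker of upper-layer neurons and their precursors, and lies in an intron of Unc5d, a netrin receptor gene with 32.6 and 30.7 TPM. Particl-201, named for its place at the promoter of Mat2a, had 13.0 and 13.6 TPM against 9.15 and 8.85 TPM. Picked likewise, Gm49338-201, opposite the beta-secretase gene Bace1, had 13.9 and 12.9 TPM against 10.01 and 9.02 TPM. Bach2it1-201 and Ppnr-201 stayed under 1 TPM, with 0.83 and 0.37 TPM, and 0.86 and 0.57 TPM. Psmd9-207, of whose 31-base runs 96.1% were shared, had 0.91 and 1.03 TPM.

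Homer1 and Ntrk2 are the hosts of the 3 intronic members described above as over 2-fold lower in replicate 2 in both files. Whether these hosts share a pathway was not tested. The 3 members are not the whole set, since 15 of 1232 measured intronic members were over 2-fold lower in the estimated-count files. A list of 12 immediate early genes was drawn up after those members were seen. It was lower in replicate 2 for 12 of 12 genes, with a median log2 difference of -0.70 and a range from -1.15 to -0.12. Over all annotated transcripts that passed the count minimum in the estimated-count files, 57.3% were lower in replicate 2. Because the list came after those members were seen, the full count carries no weight of its own. Arc had 240 and 118 TPM, Fos 60.2 and 35.6 TPM and Npas4 19.5 and 8.49 TPM. A link between these genes and the intronic members was not tested.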
